A study of Mus musculus with 42 samples.

Results

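VmSC5 stromal cells recovered after adoptive transfer were compared by the population they came from: VmSC4-derived VmSC5, which were sorted as VmSC4 before transfer and as VmSC5 after it, and VmSC5-derived VmSC5, which were sorted as VmSC5 both times. The comparison used 5 of the 42 RNA-seq libraries of the series, 3 of VmSC4-derived VmSC5 and 2 of VmSC5-derived VmSC5, chosen by sample title, and covered all 13947 genes that passed the count filter out of 55011 in the table. VmSC4 and VmSC5 are the submitters' names for 2 stromal populations of mouse visceral adipose tissue (VAT). All the cells carried the genotype label Pparg-Tdt and the cell type label Stromal Cell, and the recipients are given as Kaeda mice. The context groups were VmSC4-derived VmSC4 (n = 3), fresh VmSC4 (n = 3) and fresh VmSC5 (n = 3), also from Pparg-Tdt mice and VAT, and these 9 libraries entered the same 14-library fit.

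The transfer asked whether VmSC4 and VmSC5 pass into each other, and the comparison asks how alike 2 recovered populations with 1 sorted phenotype and different origins are. The sorting gates, the age and number of donors and recipients, and the time between transfer and recovery are not given in the sources used here. Genes that stand for the gate were made alike by the sort, so a like level of such a gene is not a finding. The protocol gives 1000 double-sorted cells per freshly isolated library, and no label says whether libraries of 1 group came from separate animals, so a p-value reflects no more than how far these libraries spread, a spread that may be technical. In sorted bulk RNA, fewer cells of a type and less RNA per cell cannot be told apart. The labels also do not say whether the 2 origins shared recipients or transfer batches. A difference by origin below therefore cannot be told apart from a difference between recipients or batches.

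Fat depots hold PDGFRA+ stromal cells at several stages of commitment. Interstitial progenitors marked by DPP4 and PI16 line the connective tissue around the depot and give rise to ICAM1+ preadipocytes, and F3+ stromal cells restrain adipogenesis in their neighbours. The same cells lay down the collagen network of the depot, and stromal cells of VAT are a main source of IL-33, the cytokine that sustains regulatory T cells there.

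Total counts were 3785455 to 4952043 per VmSC4-derived VmSC5 library and 4492774 and 4972189 in the VmSC5-derived VmSC5 libraries, and levels are given as CPM, the usual depth-scaled count, taken over a library's total. All 5 libraries carried the stromal label in their RNA. Pdgfra, the PDGF receptor that marks stromal progenitors, had 692, 777 and 704 CPM in VmSC4-derived VmSC5 and 936 and 1148 CPM in VmSC5-derived VmSC5. Pecam1 and Cdh5, which define endothelial cells, stayed at 4.63 CPM or lower in every library, and Ptprc, the pan-leukocyte gene, at 0.826 CPM or lower. Adipoq, the adipocyte hormone adiponectin, had 0 counts in all 5 libraries, which allows up to 0.221 CPM over the VmSC4-derived VmSC5 libraries and 0.317 CPM over the VmSC5-derived VmSC5 libraries (counting error only). The 12 endothelial markers summed to 139 to 156 CPM in VmSC4-derived VmSC5 and 196 to 269 CPM in VmSC5-derived VmSC5, most of it Tek, and the 14 macrophage markers to 11.6 to 13.5 and 13.4 to 17.3 CPM, with Adgre1 and Itgam at 0 in both groups. The 13 T and NK cell markers summed to 3.84 to 6.40 CPM in VmSC4-derived VmSC5 and 1.21 to 2.89 CPM in VmSC5-derived VmSC5, and the 12 mesothelial markers to 80.7 to 91.4 and 94.9 to 109.7 CPM, most of it Wt1. The 30 adipocyte genes summed to 2117 to 2278 CPM in VmSC4-derived VmSC5 and 2472 to 2773 CPM in VmSC5-derived VmSC5. Some low markers were uneven between libraries. Car3 had 25.9, 2.27 and 17.6 CPM in VmSC4-derived VmSC5 and 82.7 and 9.35 CPM in VmSC5-derived VmSC5. For Cd36 the values were 25.4, 0.206 and 0.808 against 33.6 and 11.4 CPM. The endothelial markers Cldn5 and Ptprb had 4.83 and 5.63 CPM in VmSC5-derived replicate 1 and 0 in replicate 2. The part of these markers in the results below was not tested.

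The recovered VmSC5 differed by origin in a small share of genes. Of 13947 genes tested, 160 were called at an adjusted p under 0.05 in edgeR's quasi-likelihood test with Benjamini-Hochberg adjustment (1.15%), 73 higher (0.523%) and 87 lower (0.624%) in VmSC4-derived VmSC5. The changes passed 2-fold for 35 of the higher and 44 of the lower genes, the smallest called change was 0.46 on the log2 scale, and the median over all genes was -0.01. In each of the 160 genes all libraries of one group lay above all of the other, an arrangement that held for 11.4% of all genes with VmSC4-derived VmSC5 above and for 20.2% with it below. This was read on CPM over total counts, without the TMM scaling of the fold changes. The TMM factors were 0.954 to 0.970 in VmSC4-derived VmSC5 and 1.01 in both VmSC5-derived libraries. Their part in the unequal shares was not tested. The 95% interval of the difference lay within 2-fold for 61.2% of genes. For the rest it reached 2-fold or beyond, so where such a gene was not called a difference of that size is not excluded. Smaller differences could also be missed at this depth and number of libraries.

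**Figure D1:**
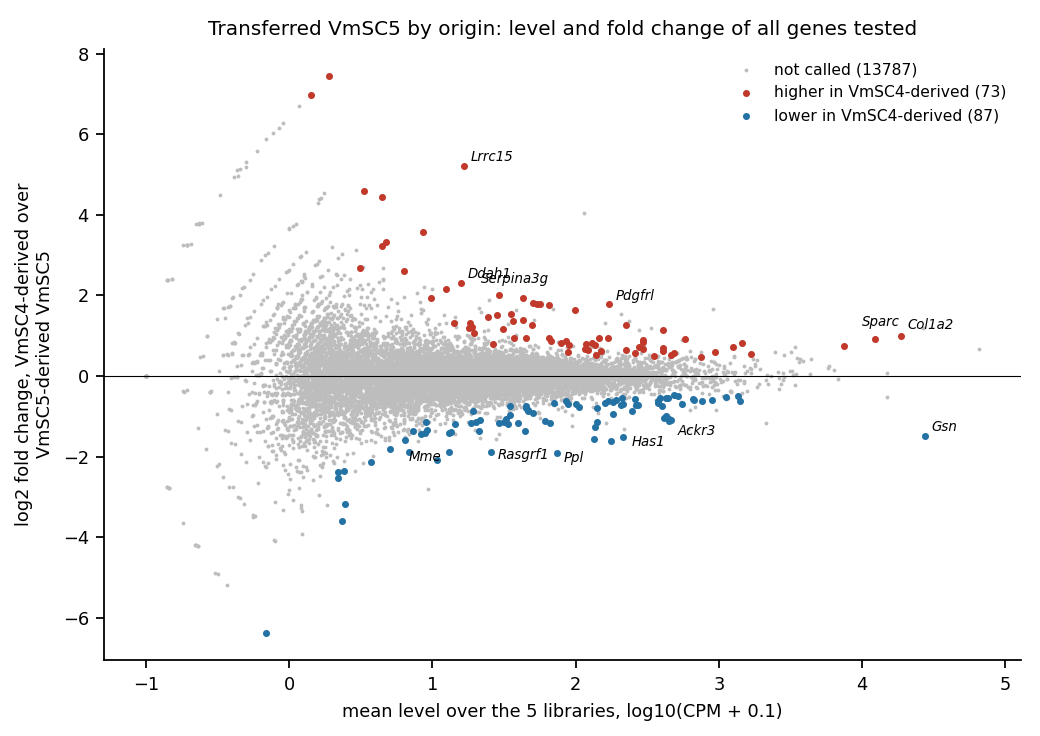
Each point is 1 of the 13947 genes, with its mean level over the 5 libraries across (log10 of CPM + 0.1) and its log2 fold change, VmSC4-derived over VmSC5-derived VmSC5, upward. Red points are the 73 genes called higher and blue points the 87 called lower; Gsn, at the far right, was the most abundant of the genes called lower.

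The count of calls rested on few libraries. It was 74, 74 and 82 without VmSC4-derived VmSC5 replicate 1, 2 or 3, and 84 and 31 without VmSC5-derived VmSC5 replicate 1 or 2; in these last fits the lone VmSC5-derived library is assumed to vary like the other groups. With the fresh libraries left out of the fit, so that the 8 transferred libraries alone set the spread, 506 of 13066 genes were called (3.87%), 277 higher (2.12%) and 229 lower (1.75%), among them 156 of the 160. Replicates differed by 8.31 to 24.24 times the counting noise among fresh libraries and by 3.09 to 6.42 times among transferred ones (chi-square per degree of freedom). Total counts were 8527769 to 12514783 per fresh library and 1967123 to 5044946 per transferred one. At an equal spread between samples this measure grows with depth, so it does not show which kind of library varied more. Of 54 genes named below that were called, 18 kept the call and direction under all 21 alternatives: Lrrc15, Serpina3g, Ncam1, Clec11a, Col12a1, Pdgfrl and Col1a2 among the higher, and Gsn, Smpd3, Has1, Ackr3, Ppl, Rasgrf1, Cav1, Cdh13, Amotl2, Timp3 and Ccl11 among the lower.

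The largest rise in VmSC4-derived VmSC5 among called genes at 20 CPM or more was in Lrrc15. Lrrc15, a membrane protein that marks TGF-beta-activated fibroblasts (chromosome 16, 30269302 to 30283256, minus strand, mm10), had 32.2, 28.3 and 20.4 CPM in VmSC4-derived VmSC5 and 0.402 and 1.11 CPM in VmSC5-derived VmSC5. All 3 VmSC4-derived libraries lay far above both VmSC5-derived ones, in which the gene was close to the floor of 3 counts. The log2 fold change was 5.21 ± 0.67 (SE; adjusted p = 0.000248, edgeR). Col12a1, a collagen that sits on the surface of collagen fibrils, had 95.1, 72.7 and 56.1 CPM in VmSC4-derived VmSC5 and 25.3 and 19.8 CPM in VmSC5-derived VmSC5. Its groups did not overlap, and it rose by 1.79 ± 0.25 on the log2 scale (adjusted p = 0.000248, edgeR). Clec11a, the secreted growth factor osteolectin, had 79.0, 88.8 and 65.4 CPM in VmSC4-derived VmSC5 and 26.7 and 20.3 CPM in VmSC5-derived VmSC5, again without overlap, and rose by 1.79 ± 0.23 (adjusted p = 4.34e-05, edgeR).

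Pdgfrl, a PDGF receptor-like protein, had 266, 225 and 221 CPM in VmSC4-derived VmSC5 and 74.6 and 69.9 CPM in VmSC5-derived VmSC5, and the log2 fold change was 1.78 ± 0.23 (adjusted p = 0.000332, edgeR). Ncam1, the neural cell adhesion molecule, had 73.4, 71.0 and 64.2 CPM in VmSC4-derived VmSC5 and 21.9 and 19.8 CPM in VmSC5-derived VmSC5 (log2 fold change 1.80 ± 0.24, adjusted p = 0.000107, edgeR). Sox10, a Schwann cell transcription factor, stayed at 0.202 CPM or lower in all 5 libraries. Serpina3g, an intracellular inhibitor of cathepsins in the mouse, had 34.1, 59.4 and 30.5 CPM in VmSC4-derived VmSC5 and 10.1 and 11.4 CPM in VmSC5-derived VmSC5; replicate 2 of VmSC4-derived VmSC5 was the highest, and the log2 fold change was 2.02 ± 0.31 (adjusted p = 0.000502, edgeR). Serpina3g belongs to a cluster of near-identical genes, and its counts are uncertain because the handling of shared reads is not given.

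The remaining 6 of the 12 largest rises were Ddah1, which breaks down methylarginine inhibitors of nitric oxide synthase (log2 fold change 2.31), the sorting receptor gene Sorcs2 (1.94), the matricellular WNT target Ccn4 (1.76), Cthrc1, a secreted protein of activated fibroblasts (1.64), the actin oxidase gene Mical2 (1.53) and the adipokine gene C1qtnf3 (1.52). Cthrc1 had 137, 127 and 138 CPM in VmSC4-derived VmSC5 and 48.3 and 41.6 CPM in VmSC5-derived VmSC5, with no overlap. The calls of Ddah1 and Ccn4 ended without either VmSC5-derived library (highest adjusted p 0.0926 and 0.109, edgeR), and that of Sorcs2 without VmSC5-derived replicate 1 (0.0501). Those of Cthrc1, Mical2 and C1qtnf3 ended without any single one of the 5 libraries (highest adjusted p 0.308, 0.319 and 0.421), and also without VmSC4-derived VmSC4 replicate 3 for Cthrc1, replicates 1 and 2 for C1qtnf3, and any of those 3 or replicate 2 of either fresh group for Mical2.

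**Figure D2:**
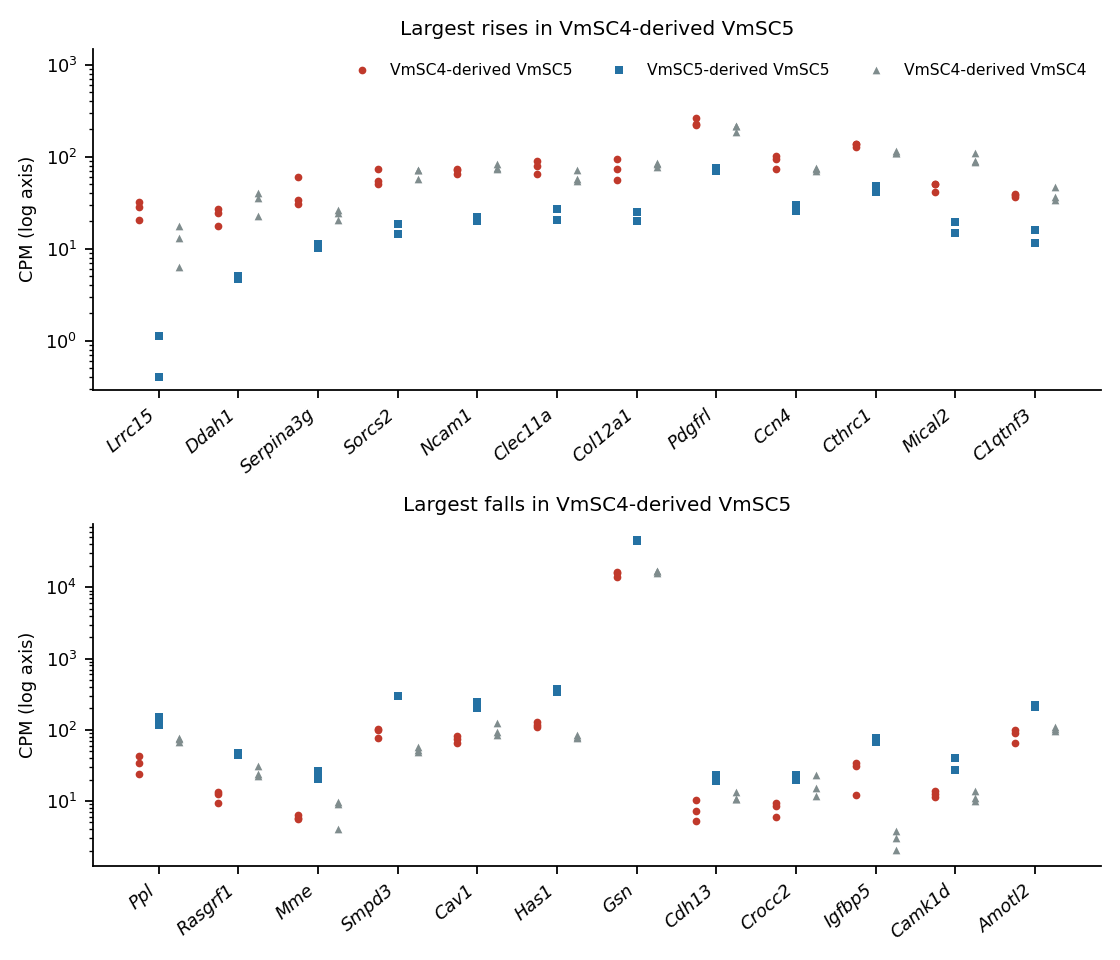
CPM on a log axis in each library of VmSC4-derived VmSC5 (red circles, 3), VmSC5-derived VmSC5 (blue squares, 2) and VmSC4-derived VmSC4 (grey triangles, 3), for the 12 largest rises (top) and the 12 largest falls (bottom) of VmSC4-derived over VmSC5-derived VmSC5 at 20 CPM or more. For Gsn the VmSC4-derived VmSC5 libraries reach 16298 CPM at most and lie beside the VmSC4-derived VmSC4 ones, while the VmSC5-derived libraries are at 44364 and 46208 CPM.

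Among the falls, the most abundant gene was Gsn, which encodes the actin-severing protein gelsolin (chromosome 2, 35256380 to 35307892, plus strand, mm10). It had 13923, 16095 and 16298 CPM in VmSC4-derived VmSC5 and 44364 and 46208 CPM in VmSC5-derived VmSC5. The VmSC5-derived libraries were both more than double every VmSC4-derived one, and Gsn fell by 1.48 on the log2 scale (SE 0.12, adjusted p = 2.12e-08, edgeR). Smpd3, the neutral sphingomyelinase that makes ceramide at the plasma membrane, had 77.1, 103.6 and 99.96 CPM in VmSC4-derived VmSC5 and 295 and 302 CPM in VmSC5-derived VmSC5. It fell by 1.60 (SE 0.14, adjusted p = 8.71e-08, edgeR), with no overlap. Has1, a hyaluronan synthase (chromosome 17, 17843323 to 17855205, minus strand, mm10), had 118, 129 and 109 CPM in VmSC4-derived VmSC5 and 342 and 368 CPM in VmSC5-derived VmSC5, and fell by 1.51 (SE 0.14, adjusted p = 1.27e-07, edgeR).

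Ppl, the desmosomal linker periplakin, had 42.5, 34.7 and 24.2 CPM in VmSC4-derived VmSC5 and 117 and 149 CPM in VmSC5-derived VmSC5, and fell by 1.91 (SE 0.18, adjusted p = 7.85e-07, edgeR). Cav1, the main coat protein of caveolae, had 74.0, 65.4 and 81.8 CPM in VmSC4-derived VmSC5 and 248 and 205 CPM in VmSC5-derived VmSC5, and fell by 1.55 (SE 0.16, adjusted p = 1.32e-06, edgeR). In both genes the lowest VmSC5-derived library was above every VmSC4-derived one. Rasgrf1, an exchange factor for RAS, fell by 1.90 to 12.4, 9.49 and 13.3 CPM, against 47.1 and 44.7 CPM in VmSC5-derived VmSC5 (adjusted p = 1.24e-06, edgeR). Amotl2, an angiomotin that binds the growth regulator YAP, fell by 1.26 (adjusted p = 0.000391) and Cdh13, the adiponectin-binding T-cadherin, fell by 1.42 (adjusted p = 0.00175, edgeR).

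The other falls of the 12 largest were in Mme, the surface peptidase neprilysin (log2 fold change -1.90), the kinase gene Camk1d (-1.36), the ciliary rootlet gene Crocc2 (-1.39) and Igfbp5 (-1.37). Mme had 5.81, 6.40 and 5.65 CPM in VmSC4-derived VmSC5 and 26.1 and 20.5 CPM in VmSC5-derived VmSC5. The call of Mme ended without VmSC5-derived replicate 1 (adjusted p = 0.076, edgeR) and that of Camk1d without VmSC5-derived replicate 2 (0.246). Crocc2 lost its call without any single one of the 5 libraries or of the VmSC4-derived VmSC4 ones, fresh VmSC4 replicate 3 or fresh VmSC5 replicate 2 (highest adjusted p 0.281), and Igfbp5 without VmSC4-derived replicate 1 or either VmSC5-derived library (highest 0.252). The call of Crocc2 also ended under RLE scaling, and that of Igfbp5 with the 2 groups fitted alone.

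Some progenitor genes fell in VmSC4-derived VmSC5, and none was called higher. Of the 22 genes listed for DPP4+ interstitial progenitors, all tested, 6 were called lower, beside 0.624% of all genes, and 3 had a positive log2 fold change. The median of the list was -0.48, beside -0.01 over all genes. Ackr3, the scavenging receptor for CXCL12 (chromosome 1, 90203980 to 90216751, plus strand, mm10), had 296, 296 and 318 CPM in VmSC4-derived VmSC5 and 739 and 604 CPM in VmSC5-derived VmSC5. The VmSC4-derived libraries were tightly grouped below both others, and Ackr3 fell by 1.07 (SE 0.16, adjusted p = 0.000391, edgeR). Beside Smpd3, Has1 and Igfbp5, the other falls were in Sema3c, a secreted guidance factor (-0.80), and Anxa3, an annexin (-0.55).

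Dpp4, Thy1 and Pi16, surface or secreted markers of such progenitors, did not pass the test. Dpp4, the surface peptidase CD26, had 77.9, 65.8 and 75.3 CPM in VmSC4-derived VmSC5 and 134 and 99.3 CPM in VmSC5-derived VmSC5. The groups did not overlap, but the difference of -0.61 (95% interval -0.98 to -0.24) had an adjusted p of 0.113 in the 14-library fit and 0.0106 with the transferred libraries alone (edgeR). Thy1, the surface protein CD90, had 30.1, 21.3 and 27.1 CPM in VmSC4-derived VmSC5 and 49.3 and 38.5 CPM in VmSC5-derived VmSC5, a difference of -0.68 (-1.11 to -0.26; adjusted p = 0.127, edgeR). Pi16, the peptidase inhibitor that marks universal fibroblasts, had 397, 492 and 386 CPM in VmSC4-derived VmSC5 and 358 and 347 CPM in VmSC5-derived VmSC5, a difference of 0.34 (-0.16 to 0.85; adjusted p = 0.687). Pi16 thus lay the other way from Dpp4 and Thy1 in its library values.

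The number of progenitor genes called depended on the libraries used. It was 3 without VmSC4-derived replicate 1 or either VmSC5-derived library, 4 without VmSC4-derived replicate 2 or 3, and 10 with the transferred libraries alone, all lower, where 1.75% of all genes were called lower. The calls of Sema3c and Anxa3 ended without any single one of the 5 libraries (highest adjusted p 0.257 and 0.281), and that of Anxa3 also without VmSC4-derived VmSC4 replicate 1 or 3. In VmSC4-derived VmSC4, which share a fit and recipients of the same kind, Ackr3 had 95.3, 86.4 and 77.7 CPM, Dpp4 34.3, 29.0 and 26.4 CPM and Thy1 1.01, 1.53 and 0.991 CPM. For these 3 genes every VmSC4-derived VmSC5 library lay between those of VmSC5-derived VmSC5 and of VmSC4-derived VmSC4. Of the 22 listed genes, 12 were called higher than in VmSC4-derived VmSC4 and none lower (median 0.95), beside 0.746% and 1.03% of all genes. Summed, the list did not lie between. VmSC4-derived VmSC5 had 10283 to 10635 CPM, within the 9127 to 11359 CPM of VmSC4-derived VmSC4, and VmSC5-derived VmSC5 had 12278 to 12605 CPM. VmSC4-derived VmSC4 were sorted apart from the recovered VmSC5, and the part of the sort in these values was not tested.

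**Figure D3:**
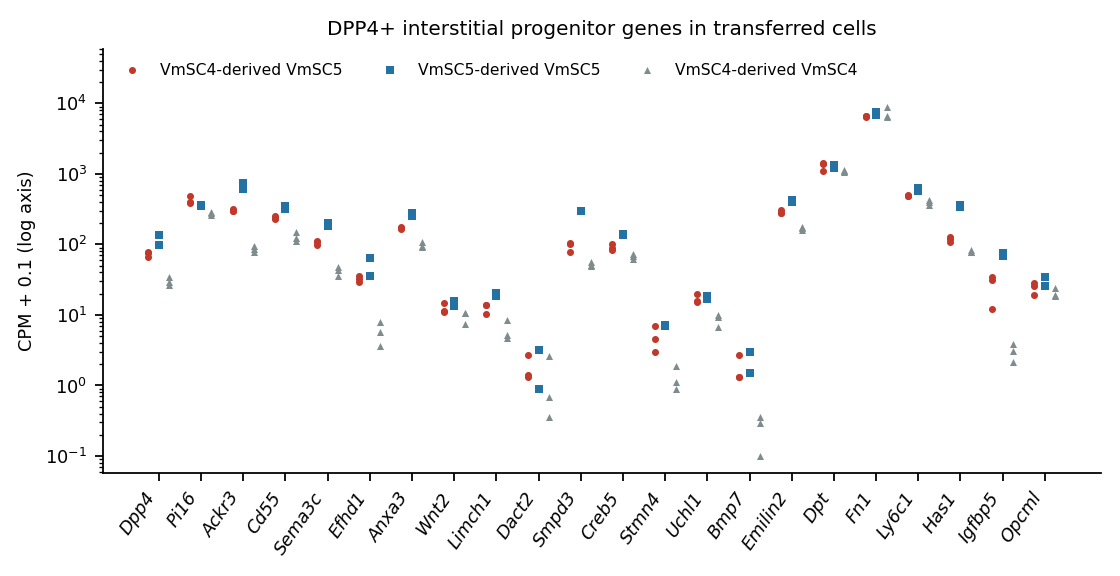
CPM + 0.1 on a log axis of the 22 listed DPP4+ interstitial progenitor genes in each library of VmSC4-derived VmSC5 (red circles), VmSC5-derived VmSC5 (blue squares) and VmSC4-derived VmSC4 (grey triangles). Ackr3, Smpd3, Has1, Sema3c, Anxa3 and Igfbp5 are the 6 genes called lower in VmSC4-derived than in VmSC5-derived VmSC5, and for each the red points lie below the blue ones.

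Col1a2, 1 chain of type I collagen (chromosome 6, 4504814 to 4541544, plus strand, mm10), had 22888, 22750.3 and 23587 CPM in VmSC4-derived VmSC5 and 12511 and 11753 CPM in VmSC5-derived VmSC5. It rose by 1.00 on the log2 scale (SE 0.14, adjusted p = 0.00014, edgeR), with the VmSC4-derived libraries within a narrow band far above the others. Of 18 collagen genes tested, 3 were called higher and 2 lower, beside 0.523% and 0.624% of all genes, with a median of 0.49. The 3 higher ones were Col1a2, Col12a1 and Col6a3. The 2 lower ones were Col4a1, a chain of basement membrane collagen IV (fell by 0.62, adjusted p = 0.0115), and Col18a1, the precursor of endostatin (fell by 0.68, adjusted p = 0.0435, edgeR). Summed over the 18 genes, collagen transcripts made up 150291 to 160173 CPM in VmSC4-derived VmSC5 and 95464 to 97302 CPM in VmSC5-derived VmSC5. Before transfer the list ran the other way. In fresh VmSC4 over fresh VmSC5, 1 of the 18 was called higher and 12 lower (median -0.63), beside 11.0% and 7.41% of all genes.

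The other main fibrillar chains had wide intervals in the 14-library fit. Col1a1 had 34839, 32491 and 34619 CPM in VmSC4-derived VmSC5 and 15278 and 15998 CPM in VmSC5-derived VmSC5, a difference of 1.19 (0.57 to 1.81) with an adjusted p of 0.0786, and 8.25e-11 with the transferred libraries alone (edgeR). Col3a1 had 80623, 75222 and 72824 CPM in VmSC4-derived VmSC5 and 49919 and 50064 CPM in VmSC5-derived VmSC5, a difference of 0.68 (0.23 to 1.12; adjusted p = 0.169, and 2.61e-07 with the transferred libraries alone, edgeR). In both genes the groups stood well apart. With the transferred libraries alone, 9 collagens were called higher and the same number as before, 2, lower, beside 2.12% and 1.75% of all genes. Calls in the 14-library fit numbered 2 without VmSC4-derived replicate 1 or VmSC5-derived replicate 2, and 3 without any other of the 5 libraries or any VmSC4-derived VmSC4 library, and 9 and 8 without fresh VmSC4 replicate 2 or 3. Col1a2 and Col12a1 were called in each case, while Col6a3 and Col18a1 lost their calls without any single one of the 8 transferred libraries (highest adjusted p 0.445 and 0.314), and Col6a3 also without fresh VmSC5 replicate 2.

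Of 28 other matrix genes, 5 were called higher and 1, Has1, lower, beside 0.523% and 0.624% of all genes, and the median was 0.38. In fresh VmSC4 over fresh VmSC5, 2 of the 28 were called higher and 9 lower (median -0.37), beside 11.0% and 7.41% of all genes. Sparc, a collagen-binding matricellular protein, had 14103, 15064 and 15558 CPM in VmSC4-derived VmSC5 and 8911 and 7788 CPM in VmSC5-derived VmSC5, and rose by 0.91 (SE 0.15, adjusted p = 0.00102, edgeR). Fbln1, an elastic fibre protein, had 1722, 1748 and 1737 CPM in VmSC4-derived VmSC5 and 994 and 1072 CPM in VmSC5-derived VmSC5, and rose by 0.82 (SE 0.14, adjusted p = 0.00252, edgeR). Both separated the groups fully. Pcolce, the enhancer of procollagen C-proteinase, rose by 0.73 and Bgn, the small proteoglycan biglycan, rose by 0.75, and Lrrc15 was the fifth. Dcn, the related proteoglycan decorin, had 14421, 15120.0 and 15764 CPM in VmSC4-derived VmSC5 and 15673 and 14238 CPM in VmSC5-derived VmSC5, overlapping levels with a difference of 0.09 (-0.20 to 0.37).

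Without VmSC5-derived replicate 2 only Lrrc15 and Has1 of these 6 kept their calls, and without VmSC5-derived replicate 1 there were 4 calls. The call of Bgn ended without any single one of the 8 transferred libraries, or replicate 2 of either fresh group (highest adjusted p 0.334), and those of Sparc and Pcolce without VmSC5-derived replicate 2 (0.0803 and 0.250, edgeR). Fbln1 lost its call without either VmSC5-derived library (highest 0.0674).

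Genes that cut or protect matrix went both ways. Of 21 proteases and inhibitors, 4 were called lower and 1 higher, beside 0.624% and 0.523% of all genes. The median was 0.08, and 12 had a positive log2 fold change. With the transferred libraries alone, 5 were called lower and 4 higher, beside 1.75% and 2.12% of all genes. Timp3, a matrix-bound inhibitor of metalloproteinases, had 106, 91.0 and 79.6 CPM in VmSC4-derived VmSC5 and 215 and 209 CPM in VmSC5-derived VmSC5, and fell by 1.13 (SE 0.16, adjusted p = 0.000183, edgeR). The proteoglycan-cleaving proteases Adamts1 and Adamts5 fell by 1.09 and 0.58, and Plau, the urokinase activator of plasminogen, fell by 0.88, while Mmp23, a membrane-bound metalloproteinase, rose by 0.58. Of these 5 calls, 1 was left without VmSC4-derived replicate 2 or either VmSC5-derived library, 2 without VmSC4-derived replicate 1 and 3 without VmSC4-derived replicate 3, VmSC4-derived VmSC4 replicate 1 or fresh VmSC4 replicate 3; Timp3 was called in each case. Adamts1 was also lost without fresh VmSC5 replicate 1 or 3, and Plau without fresh VmSC4 replicate 2.

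Signals of the stromal niche moved in single genes. Il33, the alarmin that supports VAT regulatory T cells, had 278, 293 and 293 CPM in VmSC4-derived VmSC5 and 126 and 125 CPM in VmSC5-derived VmSC5. Every VmSC4-derived library was more than double both VmSC5-derived ones, and Il33 rose by 1.27 (SE 0.24, adjusted p = 0.014, edgeR), a call that ended without either VmSC5-derived library (highest adjusted p 0.182). Ccl11, the eosinophil chemokine eotaxin, went the other way: it had 245, 332 and 315 CPM in VmSC4-derived VmSC5 and 661 and 576 CPM in VmSC5-derived VmSC5, and fell by 0.99 (SE 0.17, adjusted p = 0.00252, edgeR). Tnfaip3, the NF-kappaB inhibitor A20, fell by 0.85 (adjusted p = 0.0266), and its call ended without VmSC5-derived replicate 2 or any VmSC4-derived library (highest 0.555).

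In all, 1 of 24 inflammatory genes was called higher and 2 lower, beside 0.523% and 0.624% of all genes, with a median of -0.42. With the transferred libraries alone, 2 of 23 were called higher and 5 lower, beside 2.12% and 1.75% of all genes. Cxcl1, a neutrophil chemokine, had 389, 463 and 538 CPM in VmSC4-derived VmSC5 and 919 and 814 CPM in VmSC5-derived VmSC5. Its groups were apart, but the difference of -0.83 (-1.70 to 0.04) had an adjusted p of 0.490, and 4.93e-05 with the transferred libraries alone (edgeR). In the 15 complement genes there was no call. C3, the central complement component, had 12915, 13296 and 11031 CPM in VmSC4-derived VmSC5 and 16867 and 20386 CPM in VmSC5-derived VmSC5, a difference of -0.52 (-0.84 to -0.19; adjusted p = 0.128, edgeR). No gene was called among 23 type I interferon genes (median -0.05), 27 interferon gamma genes (median 0.17) and 20 genes of the OSM-STAT3 response (median -0.07), beside 1.15% of all genes. At that share a list this short can lack a call. With the transferred libraries alone, 2 of 20 OSM-STAT3 genes were called higher and 3 lower, beside 2.12% and 1.75% of all genes. There 1 of 13 complement genes was called higher and 2 lower, 1 of 23 type I interferon genes lower, and no interferon gamma gene.

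Among growth factor genes, Tgfb3, the TGF-beta3 ligand, had 545, 506 and 501 CPM in VmSC4-derived VmSC5 and 285 and 209 CPM in VmSC5-derived VmSC5. It rose by 1.14 (SE 0.17, adjusted p = 0.000502, edgeR), a call that ended without VmSC5-derived replicate 2. Tgfb3 was the single call in 17 genes of the TGF-beta response (median 0.21), beside 0.523% of all genes called higher. With the transferred libraries alone, 4 of the 17 were called higher and none lower, beside 2.12% and 1.75% of all genes. Sfrp1, a secreted WNT antagonist, had 350.0, 375 and 339.9 CPM in VmSC4-derived VmSC5 and 195 and 223 CPM in VmSC5-derived VmSC5. It rose by 0.84 (SE 0.19, adjusted p = 0.0328, edgeR), the single call in 19 WNT and BMP genes, and lost the call without any single one of the 5 libraries or VmSC4-derived VmSC4 replicate 2 or 3 (highest 0.245). Igf1, which encodes an insulin-like growth factor, was not called although its groups did not overlap, at 1164, 1118 and 1135 CPM in VmSC4-derived VmSC5 and 1040.4 and 973 CPM in VmSC5-derived VmSC5 (0.25, -0.05 to 0.55). Angptl1, a secreted relative of the angiopoietins, rose by 0.88 (adjusted p = 0.0478), the single call in 22 angiogenic genes, which ended without any single one of the 8 transferred libraries or fresh VmSC5 replicate 1 or 2 (highest 0.542). In 10 IGF genes the single call was Igfbp5, lower. These single calls stood beside 0.523% of all genes called higher and 0.624% called lower. With the transferred libraries alone, 2 of 18 WNT and BMP genes were called higher, and 2 of 19 angiogenic genes higher and 2 lower.

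Genes of F3+ regulatory stromal cells split. Of 14 tested, Clec11a, Gas6 and Bgn were called higher and Gdf10 lower, beside 0.523% and 0.624% of all genes, with a median of 0.28. Gas6, the ligand of the TAM receptor kinases, had 1041, 1073 and 1077 CPM in VmSC4-derived VmSC5 and 734 and 749.9 CPM in VmSC5-derived VmSC5, and rose by 0.59 (SE 0.14, adjusted p = 0.0266, edgeR). Gdf10, a BMP family ligand, had 404, 451 and 455 CPM in VmSC4-derived VmSC5 and 646 and 636 CPM in VmSC5-derived VmSC5, and fell by 0.48 (SE 0.12, adjusted p = 0.038, edgeR). The calls of Gas6 and Gdf10 ended without any single one of the 5 libraries (highest adjusted p 0.236 and 0.282), that of Gdf10 also without VmSC4-derived VmSC4 replicate 3, and Clec11a alone of the 4 kept its call under every library left out.

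In the adipogenic lists single genes were called, all lower, beside 0.624% of all genes called lower. Ebf2, a transcription factor of adipocyte precursors, had 220.3, 209.9 and 207 CPM in VmSC4-derived VmSC5 and 336 and 329 CPM in VmSC5-derived VmSC5; it fell by 0.58 (SE 0.13, adjusted p = 0.0282, edgeR) and was the single call in 19 adipogenic factors (median -0.20). Pparg, the master regulator of adipogenesis, was low in all 5 libraries, with 5.81, 3.30 and 5.25 CPM in VmSC4-derived VmSC5 and 9.25 and 10.0 CPM in VmSC5-derived VmSC5. The groups did not overlap, but the difference of -0.95 (-1.71 to -0.19) had an adjusted p of 0.294 (edgeR). Fabp4, the adipocyte fatty acid carrier, had 25.1, 17.3 and 27.9 CPM in VmSC4-derived VmSC5 and 38.0 and 20.9 CPM in VmSC5-derived VmSC5, with overlapping values (-0.27, -1.01 to 0.48). Of 24 adipocyte genes tested, Plin4, a lipid droplet coat protein, was called lower, at 7.66, 4.33 and 1.82 CPM in VmSC4-derived VmSC5 and 18.3 and 21.4 CPM in VmSC5-derived VmSC5 (-2.08 ± 0.38, adjusted p = 0.00329, edgeR).

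Of 20 committed preadipocyte genes, Col4a1 alone was called, lower, beside 0.624% of all genes, and the median was -0.31. With the transferred libraries alone, 1 was called higher and 4 lower, beside 2.12% and 1.75% of all genes. Icam1, the adhesion molecule of committed preadipocytes, had 219.5, 245 and 258 CPM in VmSC4-derived VmSC5 and 179 and 194 CPM in VmSC5-derived VmSC5, a difference of 0.44 (0.14 to 0.74; adjusted p = 0.185, and 0.0154 with the transferred libraries alone, edgeR). Wnt5a, a non-canonical WNT ligand, was the single call in 19 anti-adipogenic genes, beside 0.624% of all genes called lower. It fell by 1.17 (SE 0.20, adjusted p = 0.00252, edgeR) to 23.2, 30.8 and 22.8 CPM, against 51.5 and 69.9 CPM in VmSC5-derived VmSC5. Without VmSC5-derived replicate 2 the calls of Plin4, Wnt5a, Ebf2 and Col4a1 ended (adjusted p up to 0.0831, 0.160, 0.236 and 0.110 over the alternatives). Those of Ebf2 and Col4a1 also ended without VmSC5-derived replicate 1 or VmSC4-derived replicate 1, and that of Ebf2 without VmSC4-derived replicate 2 or 3.

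No gene was called among 24 proliferation genes (median 0.29), 30 nuclear and mitochondrial genes of oxidative phosphorylation (median -0.01, range -0.23 to 0.23), 12 retinoid genes (median -0.07) and 20 genes of p53 and cell stress (median 0.06), beside 1.15% of all genes. With the transferred libraries alone, 2 proliferation genes were called higher and none lower, beside 2.12% and 1.75% of all genes. There the retinoid and the p53 lists each had 1 call in each direction, and oxidative phosphorylation none. Hk2, the hexokinase that commits glucose to glycolysis, was the single call in 21 glycolysis and hypoxia genes, with 21.4, 14.4 and 20.6 CPM in VmSC4-derived VmSC5 and 42.8 and 44.96 CPM in VmSC5-derived VmSC5 (-1.16 ± 0.25, adjusted p = 0.0154, edgeR); the call ended without VmSC4-derived replicate 2 or either VmSC5-derived library (highest 0.188). The 23 immediate early and dissociation stress genes, which respond to tissue digestion, had no call and a median of -0.38. With the transferred libraries alone 6 were called lower and none higher (median -0.39), beside 1.75% and 2.12% of all genes. The summed level of the 23 genes was 9763 to 10715 CPM in VmSC4-derived VmSC5 and 12564 to 12906 CPM in VmSC5-derived VmSC5. Its part in the differences above was not tested. Of 8 endothelial markers tested, 1 was called higher and 1 lower, beside 0.523% and 0.624% of all genes, with a median of -0.12. The angiopoietin receptor gene Tek fell by 0.68 (adjusted p = 0.0278, edgeR) to 119, 122 and 136 CPM, against 234 and 189 CPM in VmSC5-derived VmSC5. Kdr, a VEGF receptor gene, rose by 3.32 (adjusted p = 0.0423) from low counts, at 10.3, 3.92 and 7.47 CPM, against 1.01 and 0.445 CPM in VmSC5-derived VmSC5, and both calls ended without VmSC4-derived replicate 1 or 3 or either VmSC5-derived library (highest 0.336 and 0.449); that of Tek also ended without VmSC4-derived replicate 2, and that of Kdr without VmSC4-derived VmSC4 replicate 1 or 2 or fresh VmSC5 replicate 2.

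**Figure D4:**
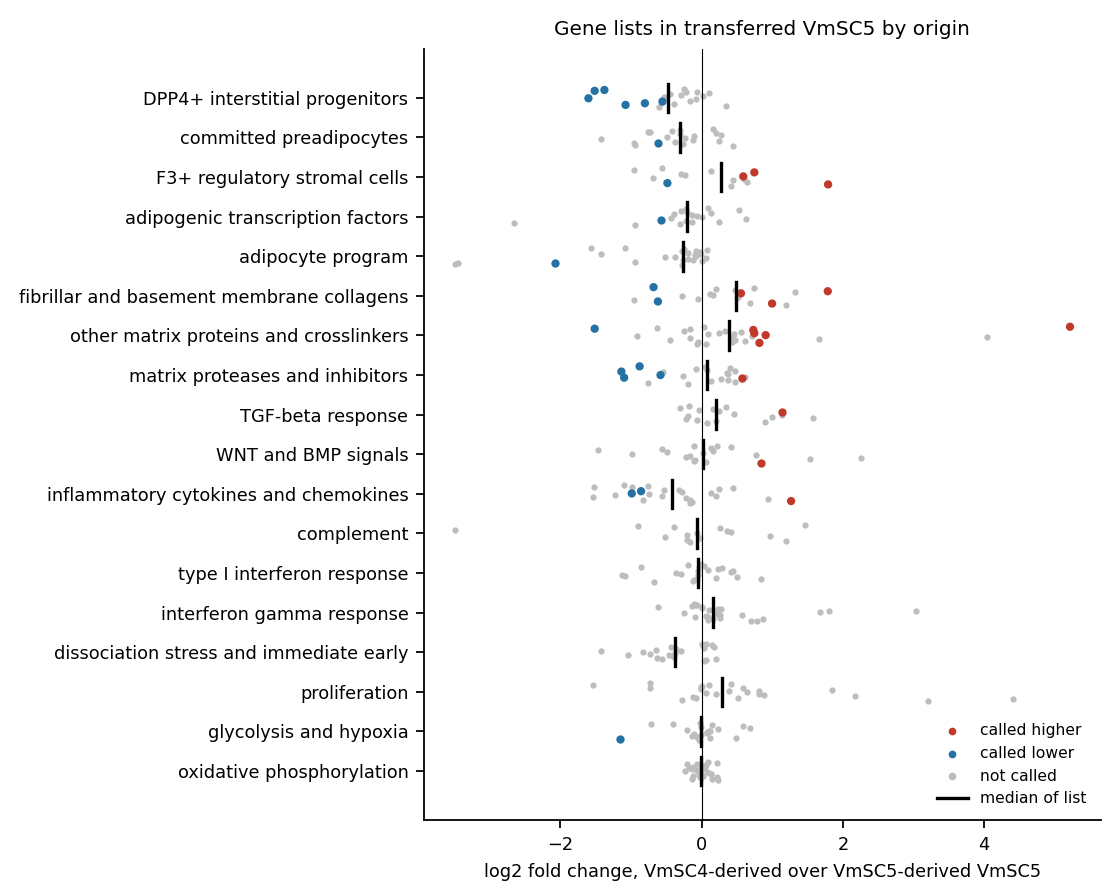
Log2 fold change, VmSC4-derived over VmSC5-derived VmSC5, of every tested member of 18 gene lists. Each point is a gene (red called higher, blue called lower, grey not called) and the black bar is the median of the list: the collagen and other matrix lists have medians of 0.49 and 0.38 and the progenitor list -0.48.

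The fresh populations gave a measure of origin from libraries outside the comparison. Before transfer, 2566 of 13947 genes were called between fresh VmSC4 and fresh VmSC5 (18.4%), 1532 higher (11.0%) and 1034 lower (7.41%) in fresh VmSC4. Of these, 608 were over 2-fold higher in fresh VmSC4 and 257 over 2-fold higher in fresh VmSC5, 6.20% of the genes tested in all. After transfer, among the 608 genes 10 were called higher (1.64%) and 6 lower (0.987%) in VmSC4-derived VmSC5, beside 0.523% and 0.624% of all genes tested, and their median difference was 0.00. Among the 257 genes, 1 was called higher (0.389%) and 10 lower (3.89%), with a median of -0.18 and a positive difference in 38.1% of them, against 49.2% of all genes tested. The median of the 257 genes was -1.37 before transfer. Without VmSC5-derived replicate 2 it was -0.10 after transfer, and with all 1034 genes called, at any fold, it was -0.035.

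Thy1, which among genes at 20 CPM or more had the largest fold towards fresh VmSC5, averaged 0.813 ± 0.196 CPM in fresh VmSC4 and 51.4 ± 4.93 CPM in fresh VmSC5 (SD, n = 3 each; log2 difference -6.03, adjusted p = 6.82e-15, edgeR), beside the difference of -0.68 after transfer. Sfrp4, a WNT antagonist, averaged 7.04 ± 2.19 CPM in fresh VmSC4 and 62.0 ± 32.0 CPM in fresh VmSC5 (SD, n = 3 each). After transfer Sfrp4 had 259, 211 and 269 CPM in VmSC4-derived VmSC5 and 299 and 258 CPM in VmSC5-derived VmSC5, with overlapping values. Likewise Sfrp2 and Hmcn2, at -4.21 and -2.45 before transfer, had differences of 0.07 (-1.36 to 1.49) and 0.21 (-0.50 to 0.92) after it, and the proprotein convertase gene Pcsk6, at -2.75, had one of -0.81 (-1.33 to -0.29; adjusted p = 0.154, edgeR).

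On the side of fresh VmSC4, Aldh1a7, an aldehyde dehydrogenase, averaged 41.6 ± 14.5 CPM in fresh VmSC4 and 0.643 ± 0.373 CPM in fresh VmSC5 (SD, n = 3 each). After transfer it had 0.792, 1.03 and 4.44 CPM in VmSC4-derived VmSC5 and 1.61 and 0.445 CPM in VmSC5-derived VmSC5. Cyp2f2, a cytochrome P450, Igfbp3, an IGF carrier, and Mmd2 averaged 41.7, 105 and 118 CPM in fresh VmSC4 and stayed at 12.9 CPM or lower in every library of both recovered groups. VmSC4-derived VmSC4 also had at most 9.71 CPM of each of these 3 genes. Reep1, which shapes the endoplasmic reticulum, had 5.81, 3.10 and 7.67 CPM in VmSC4-derived VmSC5 and 1.21 and 2.23 CPM in VmSC5-derived VmSC5, below its average of 71.0 CPM in fresh VmSC4.

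The test of the difference itself set the effect of origin after transfer against that before it, a contrast of 4 groups. It called 986 genes (7.07%), 400 higher (2.87%) and 586 lower (4.20%), and 560, 458 and 440 genes without VmSC4-derived replicate 2 and VmSC5-derived replicates 1 and 2. For the 608 genes of fresh VmSC4, 234 were called lower and none higher, and for the 257 genes of fresh VmSC5, 92 were called higher and none lower; these genes were chosen on the fresh libraries, which fixes the direction in part. Both recovered groups were sorted as VmSC5, while the fresh groups were sorted apart. For a gene that stands for the gate, the sort itself makes the difference after transfer small. Thy1 differed by 5.35 (adjusted p = 1.46e-10), Dpp4 by 2.50 (6.20e-06) and Ackr3 by 0.85 (0.0195, edgeR). The gates are not given, and the part of the sort in these values was not tested. Igf1, which averaged 1389 ± 209 CPM in fresh VmSC4 and 299 ± 58.6 CPM in fresh VmSC5 (SD, n = 3 each), differed by -1.88 (adjusted p = 1.09e-06, edgeR).

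Of the 73 genes called higher after transfer, 22 were also called higher in fresh VmSC4 over fresh VmSC5, 12 were called lower and 39 were not called. Over all genes tested, 11.0% were called higher and 7.41% lower in fresh VmSC4. Of the 87 called lower, 27 were also called lower in the fresh cells, 13 were called higher and 47 were not called. The fresh comparison shared the fit but no library with that after transfer. Among the genes in the same direction were Il33 (1.00 before transfer), Sfrp1 (1.02), Ccl11 (-0.71), Ackr3 (-1.93) and Mme (-2.60). Serpina3g and Col12a1, called higher after transfer, were lower in fresh VmSC4 (-1.44 and -0.97), and Crocc2 and Hk2, called lower after transfer, were higher in it (3.92 and 1.24). Across the 13947 genes the log2 differences before and after transfer had a Pearson r of 0.063 and a Spearman rho of -0.002, given as a description, since genes are not independent replicates.

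**Figure D5:**
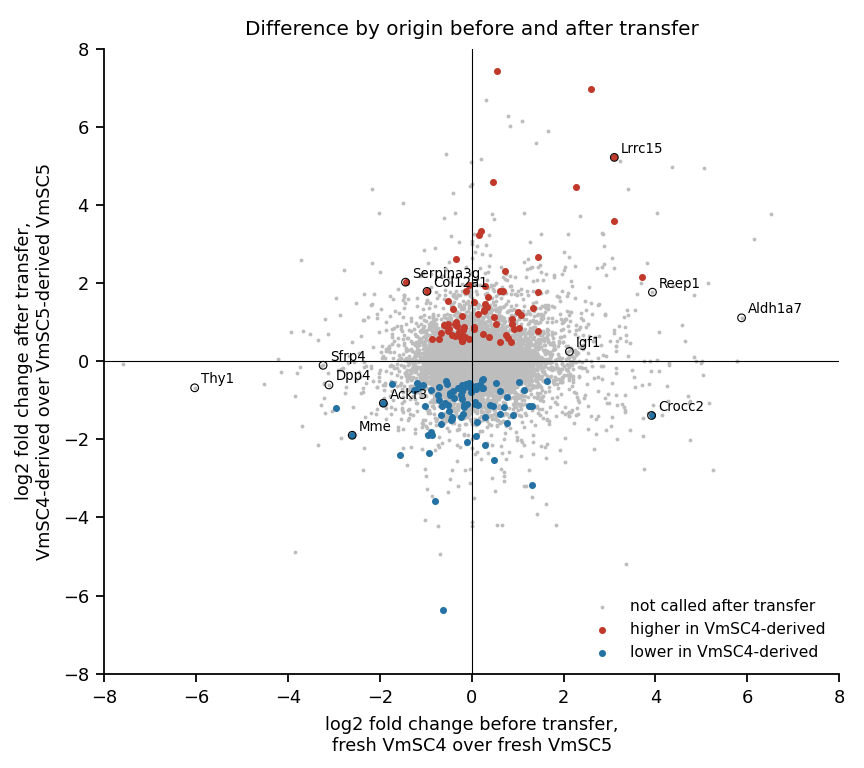
Log2 fold change of fresh VmSC4 over fresh VmSC5 (across) and of VmSC4-derived over VmSC5-derived VmSC5 (upward) for 13947 genes, with the genes called after transfer in red (higher) and blue (lower) and named genes circled. Thy1 and Aldh1a7 lie at -6.03 and 5.88 across and at -0.68 and 1.11 upward, and the points as a whole follow no diagonal (Pearson r 0.063).

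VmSC4-derived VmSC4 entered the same fit as the recovered VmSC5 and are given for position only, since comparisons with them share libraries. VmSC4-derived VmSC5 against VmSC4-derived VmSC4 gave 104 genes called higher (0.746%) and 143 lower (1.03%), 1.77% in all, and VmSC5-derived VmSC5 against VmSC4-derived VmSC4 gave 274 higher (1.96%) and 201 lower (1.44%), 3.41% in all. The 247 calls of VmSC4-derived VmSC5 became 39 and 119 without VmSC4-derived VmSC4 replicate 2 or 3, 59 and 49 without VmSC4-derived VmSC5 replicate 2 or 3, and 416 without fresh VmSC5 replicate 3. The 475 calls of VmSC5-derived VmSC5 became 297 and 302 without VmSC4-derived VmSC4 replicate 2 or 3, and 131 and 245 without VmSC5-derived VmSC5 replicate 1 or 2. In Gsn, VmSC4-derived VmSC4 had 16032, 16898 and 16937 CPM, next to VmSC4-derived VmSC5. The matrix gene Col1a1, at 33849.6, 37534 and 37096 CPM, and Ncam1, at 83.2, 75.7 and 72.7 CPM, were likewise near VmSC4-derived VmSC5 and apart from VmSC5-derived VmSC5. Whether the 2 VmSC4-derived groups shared recipients or batches is not given, so origin cannot be told apart from these here. Among the 257 genes of fresh VmSC5, 19 were called higher and 6 lower in VmSC4-derived VmSC5 over VmSC4-derived VmSC4 (median 0.17), and 36 higher and 3 lower in VmSC5-derived VmSC5 over VmSC4-derived VmSC4 (median 0.34).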

How the data were processed

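Poly(A) RNA of sorted VAT stromal cells was measured. The authors deposited whole-number counts per gene, and per the submitters' processing notes reads were aligned to mm10 with STAR 2.7.3a and counted with featureCounts. Annotation release, strand setting and the handling of shared reads are not given in the sources used here. All 55011 entries name a gene, no library was left out, and positions came from GENCODE M21 (mm10), which held 52936 of the symbols.

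The test was edgeR 4.0.16 (R 4.3.3) with TMM scaling, the default filter at a minimum count of 10, robust quasi-likelihood fits of 14 libraries in 5 groups, two-sided F tests and Benjamini-Hochberg adjustment over all genes. SE is the log2 fold change divided by the square root of F, and intervals are at 95%. CPM uses total counts, while fold changes use TMM-scaled libraries, so the ratio of CPM values differs slightly from the fold. The steps were tested on simulated data.

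Results were recomputed with DESeq2 1.42.0, under RLE scaling, without the filter, with a replicate block, fits of the transferred libraries or of both groups alone, and each library left out. Whether replicate numbers pair the samples is not known. Same-numbered deviations correlated at -0.059 and 0.045, with only 2 pairs. The deviations of 2 VmSC5-derived libraries from their mean mirror each other, so this check cannot decide it. Pairing with VmSC4-derived VmSC4 was not checked.

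Genes were named by rule: Dpp4, Pi16, Ackr3, Thy1, Icam1, Pparg, Fabp4 and Adipoq always, among called genes at 20 CPM or more without overlap the 12 with the highest and the 12 with the lowest fold, called and the 3 most abundant list members, and the 6 largest fresh differences per side. Marker genes of other cell types were read for every library. Of 35 lists with 602 genes, 500 genes were tested. The lists, the rule and the comparison were chosen with earlier results of these data known. Not every gene the rule names is reported here.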

Additional observations from a re-analysis of the deposited data

Results flagged for a closer look

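The log2 difference between VmSC4-derived and VmSC5-derived VmSC5 after transfer was set against that between fresh VmSC4 and fresh VmSC5, and the genes below are those named above for which these 2 effects differed in edgeR's interaction test (adjusted p under 0.05). Values are the effect after transfer minus that before it, on the log2 scale. Both recovered groups were sorted as VmSC5, so for a gene that stands for the gate the sort itself makes the effect after transfer small. Among progenitor and preadipocyte markers the difference was 2.50 for Dpp4, 2.16 for Pi16, 0.85 for Ackr3, 5.35 for Thy1, 1.11 for Icam1 and 0.63 for Anxa3. For other genes with a large fold towards fresh VmSC5, the difference was 3.13 for Sfrp4, 4.28 for Sfrp2, 1.94 for Pcsk6 and 2.65 for Hmcn2. Among collagen and matrix genes it was 2.76 for Col12a1, 1.03 for Bgn, 1.35 for Col1a2, 1.23 for Col3a1, 1.57 for Col1a1, 1.42 for Col6a3, 0.77 for Fbln1, 1.24 for Sparc, 1.41 for Pcolce and 0.63 for Mmp23. The other genes with a more positive effect of origin after transfer had values of 3.46 for Serpina3g, 1.64 for Sorcs2, 1.92 for Ncam1, 1.11 for Clec11a, 1.17 for Pdgfrl, 2.05 for Mical2 and 1.05 for Angptl1.

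The effect was more negative after transfer for genes over 2-fold higher in fresh VmSC4, at -5.31 for Crocc2, -1.88 for Igf1, -2.39 for Hk2, -4.77 for Aldh1a7 and -4.43 for Cyp2f2. It was also more negative for other named genes, at -2.00 for Ppl, -1.03 for Rasgrf1, -0.92 for Smpd3, -1.66 for Cav1, -1.07 for Has1, -1.06 for Gsn, -0.99 for Cdh13, -1.98 for Camk1d and -0.79 for Sema3c. For the remaining genes it was -0.71 for Gdf10, -0.99 for Wnt5a, -1.98 for Plin4, -1.17 for Adamts1 and -0.75 for Wt1.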

How the results depend on the processing

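Called genes between VmSC4-derived and VmSC5-derived VmSC5 numbered 165 with RLE scaling, 274 with DESeq2, 314 without the count filter, 529 with the 2 groups fitted alone and 506 with the transferred libraries, against 160; leaving out 1 of the 14 libraries gave 31 to 238. With the replicate block they numbered 134, and 446 with the block among the transferred libraries. Whether the replicate numbers pair these samples is not known. The test of the difference between the effects of origin gave 440 to 1288 calls with 1 library left out, against 986. VmSC4-derived VmSC5 against VmSC4-derived VmSC4 gave 482 calls with DESeq2, 450 without the filter, 786 with the transferred libraries alone, 860 with the block added and 39 to 416 with 1 library left out, against 247. VmSC5-derived VmSC5 against VmSC4-derived VmSC4 gave 929, 940 with the block and, with 1 library left out, 131 to 575 calls, against 475. The median after transfer of genes higher in fresh VmSC4 was 0.00 to 0.113 with 1 library left out, and that of genes higher in fresh VmSC5 -0.261 to -0.097; for all genes called in fresh cells, at any fold, these medians were -0.016 and -0.035. No named gene changed direction while called. The cause of these shifts was not tested. With 2 VmSC5-derived libraries, a median interval of 0.55 on either side of a log2 difference limits what could be called.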
